A study of Mus musculus and Homo sapiens with 12 samples.

Results

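The elements described here are MERVL, a mouse endogenous retrovirus of the ERVL family, and its long terminal repeat (LTR). In the repeat annotation of the mm10 genome the coding interior of the retrovirus is named MERVL-int and the LTR is named MT2_Mm. All annotated rows of these subfamilies were taken, which gave 4121 of 3158171 repeat elements: 1469 MERVL-int and 2652 MT2_Mm. The data were RNA recovered from the chromatin fraction of nuclei (chromatin-associated RNA, caRNA) of mouse embryonic stem (mES) cells, precipitated with an antibody against 5-methylcytosine (m5C) and sequenced (meRIP–seq). There were 3 libraries of wild-type (WT) cells and 3 libraries of Tet2 knockout (Tet2 KO) cells. TET2 oxidizes methylated cytosine. The WT and Tet2-/- mES cells came from another laboratory, how many clones they represent is not given in the sources used here, and both were grown with LIF, CHIR99021 and PD0325901 and passed on gelatin to clear feeder cells. The replicates are numbered in the labels, and the study calls its replicates biological. Whether they came from separate cultures is not given in the sources used here, and p-values measure the spread between these libraries. The table holds precipitated RNA without input or spike-in columns. RNA abundance and m5C enrichment therefore cannot be told apart in any difference given here, and all values are relative to the other repeats of the same library. It also holds no genes, so neither the loss of Tet2 RNA nor the markers of the cell type could be checked.

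MERVL is known as a retrotransposon of the early embryo. It is transcribed strongly in the mouse embryo around the time when the zygotic genome becomes active, and in a small fraction of cultured mES cells that resemble that stage. Its LTR carries both the promoter, which starts transcription in the copy before the interior, and the polyadenylation signal, which ends transcription in the copy behind the interior. A full provirus is thus an LTR, the interior with the gag and pol genes, and a second LTR, whereas recombination between both LTRs leaves a solo LTR.

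The study directed several oligonucleotides at MERVL RNA, and their target sites lie in the interior. They are shown because they say which part of the element was assayed or targeted elsewhere in the study; the labels of these 6 libraries name no oligonucleotide. The antisense oligonucleotide (ASO) and the forward and reverse primers for quantitative PCR are given 5′ to 3′.
ASO: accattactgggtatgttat
MERVL-F: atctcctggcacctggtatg
MERVL-R: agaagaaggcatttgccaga
Exact matches to the reverse complement of the ASO were found in 595 of the 658 MERVL-int elements of at least 5000 bp that lie on assembled chromosomes (90.4%), at a median position of base 1450 of the element. The forward primer matched 590 of these 658 elements and the reverse primer matched 608. None of the 2626 MT2_Mm elements on assembled chromosomes held the ASO site or either primer site.

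The provirus at chr9:122661151-122666603 (mm10, plus strand, 5453 bp, in an intron of 9530059O14Rik) illustrates the sites. It has an LTR on both sides and exact sites for the ASO and both primers for quantitative PCR. By mean count it ranks at 21 among all MERVL-int loci. It serves as an example, and other proviruses with the same features may have higher counts. The first stretch, chr9:122662542-122662662, is one of the windows that the study amplified after bisulfite treatment, with the ASO target in capitals. The second stretch, chr9:122661497-122661617, is the other window, with its 23 cytosines in capitals. The window includes both of its primer sites, and only the cytosines between them can be read by bisulfite. The third stretch, chr9:122663620-122663669, is the product of quantitative PCR with both primer sites in capitals.
Window with the ASO target: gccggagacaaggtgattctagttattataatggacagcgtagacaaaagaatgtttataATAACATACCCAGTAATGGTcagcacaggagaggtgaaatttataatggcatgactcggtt
Window with cytosines marked: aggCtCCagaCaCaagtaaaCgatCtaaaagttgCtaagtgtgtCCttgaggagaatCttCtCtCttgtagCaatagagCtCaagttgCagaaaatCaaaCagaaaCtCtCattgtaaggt
Quantitative PCR product: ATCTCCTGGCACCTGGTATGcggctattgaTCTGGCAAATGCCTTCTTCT
The primers of the bisulfite windows were matched to sequence in which every C was read as T. The window with the ASO target was matched exactly by both primers in 161 of the 658 long elements and the other window in 492. The windows thus differ in how many copies their primers match exactly, and how many copies were amplified was not determined.

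The 5′ LTR of the same provirus, chr9:122660658-122661150, has 493 bases, and its 3′ LTR is identical to it. Its last 250 bases (chr9:122660901-122661150, plus strand) are shown because they hold the polyadenylation signal AATAAA, in capitals.
End of the 5′ LTR: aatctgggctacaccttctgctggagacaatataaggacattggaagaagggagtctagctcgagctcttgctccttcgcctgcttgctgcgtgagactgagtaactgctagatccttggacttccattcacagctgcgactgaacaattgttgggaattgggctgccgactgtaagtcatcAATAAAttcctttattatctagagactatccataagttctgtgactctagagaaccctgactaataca
Of 1767 MT2_Mm elements of 485 to 500 bp, 1749 (99.0%) held AATAAA on the sense strand, at a median position of 426, and 20.3% held it on the antisense strand. The shares were 50.1% and 19.5% in the 10638 other elements of the LTR class of the same length. That class also holds retroviral interiors, and fragments of these were not left out. In 406 of 522 proviruses whose LTRs were of equal length and at least 485 bp, both LTRs were identical, and the lowest identity was 97.0%.

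These copies are hard to tell apart by short reads. Among the 1767 LTRs there were 1075 distinct sequences. In the long MERVL-int elements a median of 98.2% of all windows of 50 bases occurred without a mismatch in at least 1 other long element. The values in the table are fractional as well: 4.21% of the MERVL-int values above 0 and 7.50% of the MT2_Mm values were whole numbers, against 22.3% in the whole table. A value at a single locus may therefore hold shares of reads that fit several copies, and sums over a subfamily are the firmer measure.

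The libraries held between 1532029 and 3318565 estimated counts in DNA, LINE, LTR and SINE elements, and the WT libraries were deeper. Tet2 KO was compared with WT over 546 subfamilies that passed a filter on low counts, with the edgeR quasi-likelihood test and Benjamini–Hochberg adjustment. A subfamily was called at an adjusted p under 0.05.

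MERVL-int RNA was lower in Tet2 KO. The WT libraries held 41112, 63477 and 51855 estimated counts and the KO libraries held 13849, 10116 and 7544. In normalised read counts, reads scaled to a common library size (CPM) after scaling by trimmed means (TMM), the WT libraries had 19249, 21097 and 17399 CPM, and the KO libraries had 7735, 6235 and 3438 CPM. Every KO library was below every WT library, as in 10.6% of the subfamilies tested, and the lowest was KO replicate 3. The means were 19248 ± 1849 and 5803 ± 2181 CPM (SD, n = 3), a ratio of 3.32. The fitted log2 change was -1.73 ± 0.28 (SE), with an adjusted p of 0.0295 (edgeR). This was 1 of 11 subfamilies called in either direction (2.01% of the 546 tested) and 1 of 9 called lower (1.65%), beside 2 called higher. With library totals 3 were called lower and 2 higher, and with DESeq2 size factors 5 and 2. The call was lost under scaling to library totals (adjusted p = 0.0531, edgeR). It was also lost without WT replicate 1, 2 or 3 (edgeR adjusted p = 0.102, 0.0975 and 0.0723) and without KO replicate 2 (0.136). With the replicate number as a block in the fit it was lost too (edgeR adjusted p = 0.0632). With DESeq2 the adjusted p was 3.66e-11. The direction was the same in each of these fits. The median change of all tested subfamilies was 0.11 with TMM and 0.29 with library totals, and relative to that median MERVL-int was at -1.84 and -1.85.

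**Figure D1:**
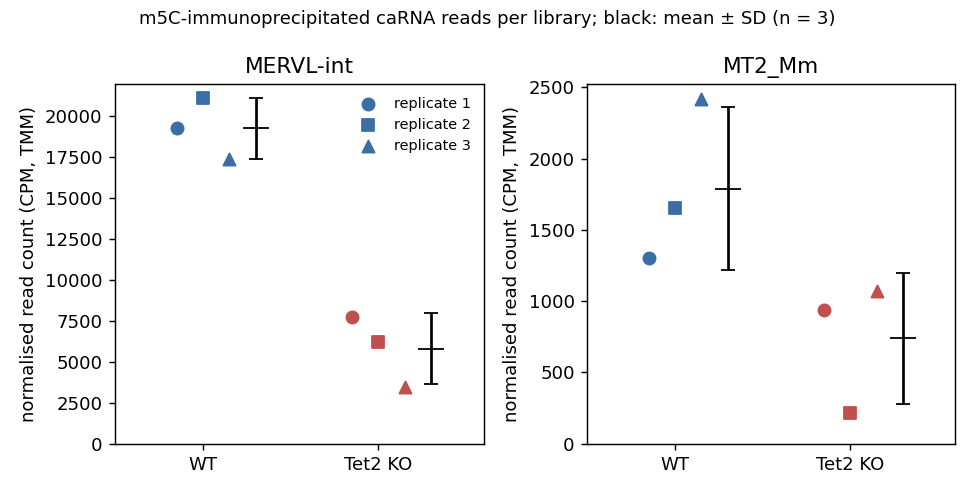
Normalised read count (CPM after TMM scaling, axes from 0) of MERVL-int and MT2_Mm in the 3 WT and 3 Tet2 KO libraries, with a symbol for each replicate and black bars for the mean ± SD. MERVL-int separates the groups by a wide gap, between 17399 and 7735 CPM, whereas MT2_Mm shows a small gap and a KO library far below the others at 216 CPM.

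MT2_Mm was also lower in every KO library, by less and with a larger spread. The WT libraries held 2780, 4965 and 7200 estimated counts and the KO libraries held 1680, 350 and 2346. After TMM scaling these were 1302, 1650 and 2416 CPM in WT and 938, 216 and 1069 CPM in KO. The groups did not overlap, but the gap between the lowest WT and the highest KO library was small beside the spread within each group. The fitted log2 change was -1.27 ± 0.57 (SE) with an adjusted p of 0.312 (edgeR), so MT2_Mm was not called. It was not called in any of the 15 alternative fits either, where the adjusted p ranged from 0.0612 to 0.514 (edgeR and DESeq2). Without KO replicate 2 the log2 change was -0.82, and without WT replicate 3 it was -0.99.

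KO replicate 2 had few counts at the LTR. It had counts at 188 MT2_Mm loci, against 794 and 860 in the other KO libraries and 986 to 1475 in WT. At MERVL-int loci the same library was like the other KO libraries, with counts at 818 loci against 822 and 810. What set this library apart at the LTR was not tested.

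Together the interior and the LTR made up 2.00%, 2.16% and 1.78% of all WT counts, and 0.902%, 0.683% and 0.495% of all KO counts. The means were 1.98% ± 0.19 and 0.693% ± 0.204 (SD, n = 3), without overlap (exact permutation test, two-sided, p = 0.1, the smallest that 3 against 3 libraries can give). By mean count MERVL-int ranked at 13 and MT2_Mm at 73 among 1093 subfamilies with counts. Per length the interior was the denser: in WT it had 3.96 ± 0.49 CPM per kb of annotated element and the LTR had 1.38 ± 0.38 (SD, n = 3), a ratio of 2.87. Here CPM is relative to the library total without TMM. In KO the densities were 1.34 ± 0.48 and 0.657 ± 0.413 CPM per kb.

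Whether the LTR and the interior moved in proportion was asked of the log2 ratio of MT2_Mm to MERVL-int counts within each library. It was -3.89, -3.68 and -2.85 in WT and -3.04, -4.85 and -1.69 in KO. The KO libraries spanned both sides of the WT range, and the groups differed by 0.28 (exact permutation test, two-sided, p = 0.9). A ratio that varies so much between KO libraries sets no narrow limit on a difference.

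The difference in MERVL-int was spread over the values of many annotated loci. Where reads fit several near-identical copies, these values cannot show how many proviruses changed. Of 1469 MERVL-int loci, 1046 had counts, and 215 of them made up 50% of the WT counts. The locus with the most counts held 0.788% of the WT counts and the 10 highest held 5.12%. By mean CPM, 954 loci (91.2%) were lower in KO and 92 were higher, against 54.2% lower among all elements with counts. The losses summed to 12260 CPM and the gains to 290.1 CPM, and 176 loci accounted for 50% of the net difference. The locus with the largest loss contributed 1.10% of it. On each of the 21 chromosomes the summed MERVL-int value had a lower mean in KO, with log2 ratios between -2.01 and -1.04. These sums are not independent of each other, since copies on different chromosomes may hold shares of the same reads.

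**Figure D2:**
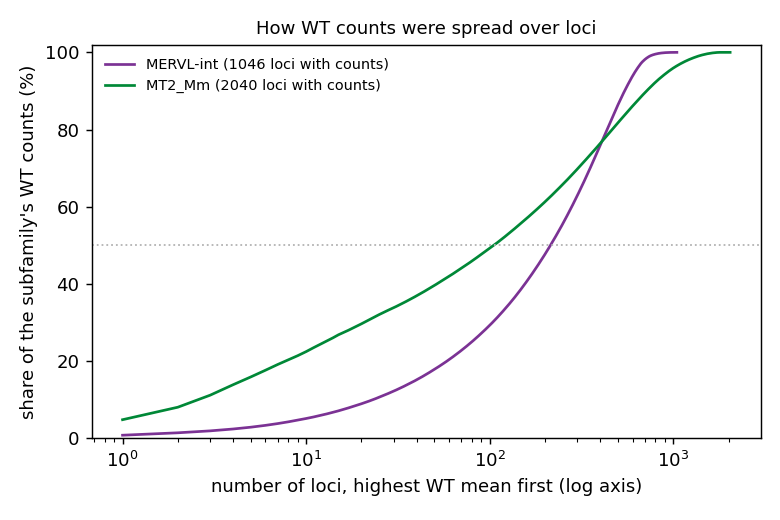
Cumulative share of the WT counts (percent, vertical axis) against the number of loci taken from the highest WT mean down (log axis) for MERVL-int and MT2_Mm. MERVL-int reaches 50% at 215 loci and 90% at 543, whereas MT2_Mm starts with a locus that holds 4.81% and reaches 50% at 106 loci and 90% at 716.

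Nearly full-length interiors carried most of the counts. The consensus of MERVL-int has 5485 bases, and 664 loci were at least 5000 bp long. These held 91.0% of the WT counts, the 272 loci from 1000 bp to under 5000 bp held 7.41%, and the 533 shorter ones held 1.59%. The long loci also made up 3674.7 of the 4574.4 kb annotated as MERVL-int. In WT the long, intermediate and short loci had 4.48, 1.89 and 1.51 CPM per kb. The summed value of the long loci was 16944, 18349 and 14145 CPM in WT and 7176, 6123 and 3380 CPM in KO, again without overlap (exact permutation test, two-sided, p = 0.1). The log2 ratio of the KO mean to the WT mean was -1.57 for the long loci, -1.46 for the intermediate ones and -1.64 for the short ones. The difference thus had a similar size in each length class. The log2 ratio of long to shorter loci within a library was 3.28, 3.46 and 3.26 in WT and 3.04, 3.67 and 3.10 in KO, a difference of -0.06 (exact permutation test, two-sided, p = 0.8). Its sign turned when single libraries were left out.

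The density of reads differed between complete and incomplete elements. MERVL-int loci with an LTR within 100 bp on both sides had 4.78 CPM per kb in WT, those with an LTR on 1 side had 2.99 and those without an adjacent LTR had 0.484. In KO the values were 1.62, 1.12 and 0.137 CPM per kb. The 663 loci with an LTR on both sides held 92.2% of the WT MERVL-int counts, and they overlap widely with the long loci. The KO to WT log2 ratios were -1.57, -1.41 and -1.82 in these classes. The groups did not overlap in any of them.

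**Figure D3:**
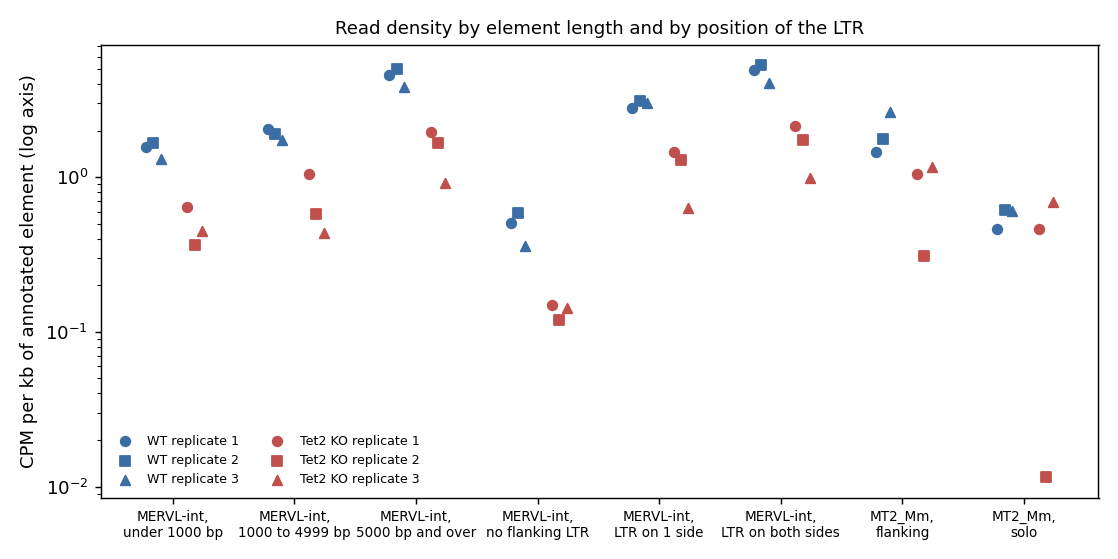
Read density (CPM per kb of annotated element, log axis) in each library for MERVL-int loci by length and by adjacent LTRs, and for MT2_Mm beside a MERVL-int interior (flanking) or away from one (solo). WT points (blue) lie above KO points (red) in all 6 MERVL-int classes, the highest densities are at long loci and those with an LTR on both sides, and the solo LTRs overlap between groups.

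The same split by location gave like values. Of the MERVL-int loci, 923 were intergenic, 466 lay in introns, 60 overlapped an annotated exon of GENCODE M21 and 20 lay outside the assembled chromosomes. The first 3 sets held 56.8%, 38.6% and 4.69% of the WT counts. The log2 ratios of KO to WT were -1.51, -1.64 and -1.50, and no group of KO libraries overlapped with WT.

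To count loci without a filter on their level, all 653 long MERVL-int loci with any count were set beside the 42516 elements of at least 5000 bp with counts from all subfamilies. Of the 653, 622 (95.3%) had a lower mean share of the library total in KO, against 57.0% of all such elements. At 441 (67.5%) every KO library was below every WT library, against 11.6% of all such elements. At 0 of the 653 was every KO library above every WT library, against 5.97%. Since reads are shared between near-identical copies, these loci are not independent of each other.

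**Figure D4:**
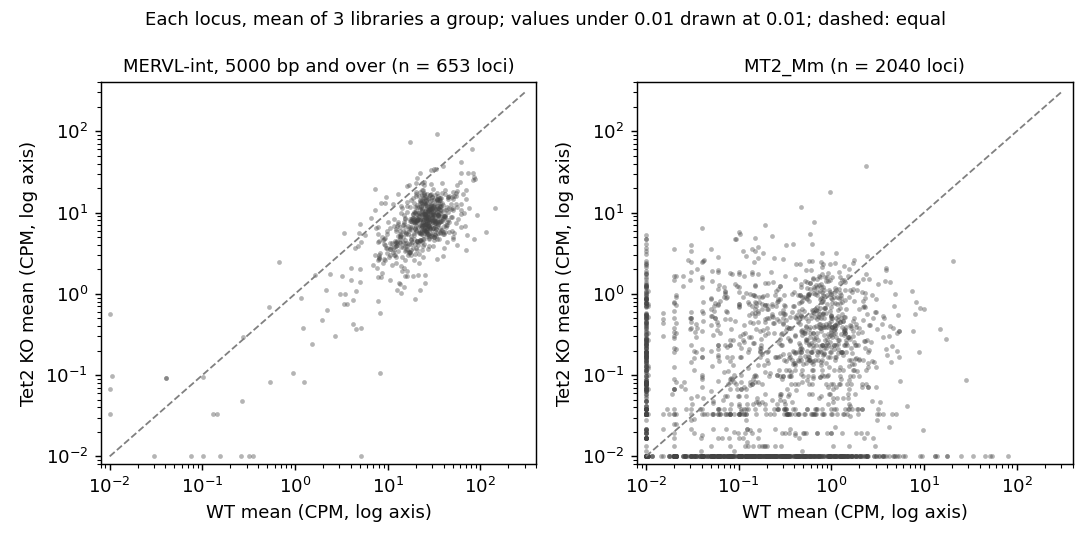
Mean CPM in KO against mean CPM in WT (both log axes, n = 3 libraries each) for 653 MERVL-int loci of at least 5000 bp and for 2040 MT2_Mm loci with counts, with a dashed line at equal values and values under 0.01 drawn at 0.01. Most long MERVL-int loci form a single cloud below the line, whereas MT2_Mm loci scatter on both sides at low values, many of them without counts in KO.

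Single loci were tested with the same model over 19030 elements that passed the filter. Of the MERVL-int loci 646 passed, 588 of them at least 5000 bp long, and of the 2652 MT2_Mm loci 0 passed. No member was called with edgeR, against 9 elements (0.0473%) of all tested, and the lowest adjusted p of a member was 0.0782. At an unadjusted p under 0.05, 276 members were lower and 2 higher, against 7.92% and 13.1% of all tested elements. DESeq2 called 151 members lower and 2 higher. Of all 19030 tested elements it called 651 lower (3.42%) and 1507 higher. A locus that passed the filter through the WT libraries alone had to be lower in KO, so these counts describe only the loci that were tested.

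The 5 MERVL-int loci of highest mean count are close to the consensus in length, apart from 1 merged row of 10424 bp. The highest was chr13:114040479-114045930 (plus strand, 5452 bp, in an intron of Arl15), with WT values of 585, 310.1 and 213.5 counts and KO values of 30.6, 16.0 and 12.4. Its log2 change was -3.29 ± 0.66 (SE, edgeR adjusted p = 0.101). At chr5:69772304-69777754 (plus strand, 5451 bp, intergenic, 19776 bp from Gm26044) the WT values were 488, 257 and 125 counts and the KO values 9, 5.70 and 16.4, a log2 change of -3.84 ± 0.73 (edgeR adjusted p = 0.101). At both loci every KO library was far below every WT library, and among the WT libraries replicate 1 was the highest.

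At chr13:97716756-97722208 (plus strand, 5453 bp, intergenic, 11290 bp from 5330416C01Rik) the WT libraries held 195, 280 and 285 counts and the KO libraries 83.1, 23.9 and 29.5. At chr13:49694289-49699700 (plus strand, 5412 bp, in an intron of Iars, the gene of an isoleucyl-tRNA synthetase) they held 188, 224 and 331 against 80.4, 40.1 and 20.7. The fitted log2 changes were -1.48 and -1.35, close to the median of -1.30 over the 646 tested loci. The median over all 19030 tested elements was 0.03, and 48.6% of them had a change below 0. Both medians cover only loci that passed the filter, which can admit a locus through the WT libraries alone.

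Some loci departed from this pattern. Of the 1046 MERVL-int loci with counts, 3 had every KO library above every WT library (0.287%, against 1.63% of all elements with counts). The row of 10424 bp, chr12:17866671-17877094 (minus strand, intergenic, 5103 bp from Gm49326), had WT values of 113, 366 and 244.9 counts and KO values of 121, 66.5 and 135, and the groups overlapped (log2 change -0.15 ± 0.40, SE, edgeR adjusted p = 0.862). An interior fragment of 598 bp, chr9:83148256-83148853 (plus strand, consensus bases 2959 to 3556, intergenic, 892 bp from Gm29054), was named after its values were seen because it had the lowest p of all members. Its WT values were 1.87, 3.50 and 2.70 counts and its KO values 14.5, 14.9 and 16.3, so every KO library was above every WT library. Its log2 change was 2.54 ± 0.35 (SE), with an adjusted p of 0.0782 (edgeR). Also picked for a low p, chr3:28884178-28889617 and chr17:23504906-23510349 were lower in KO. Their log2 changes were -3.30 and -2.51 (edgeR adjusted p = 0.0975 and 0.101).

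The largest gains in mean CPM, also named after their values were seen, were at loci that 1 or 2 KO libraries set apart. At chr11:119699564-119705008 (plus strand, 5445 bp, in an intron of Rptor, the gene of an mTORC1 subunit) the WT values were 45.1, 213.3 and 47.9 counts and the KO values 8.50, 406 and 23.2. At chr11:92586018-92591462 (plus strand, 5445 bp, intergenic) they were 45.6, 66.2 and 34.4 against 28.7, 288 and 28.3 counts. At both loci KO replicate 2 alone was above the WT range. At chr11:19516328-19517752 (minus strand, 1425 bp, intergenic), which did not pass the filter, they were 5.35, 2.73 and 1.75 against 47.2, 0 and 41.9 counts, so the KO libraries lay on both sides of the WT range. The first 2 were not called (edgeR adjusted p = 0.522 and 0.265).

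The MT2_Mm counts were less evenly spread. Of 2652 loci, 2040 had counts but only 538 reached 10 counts over the 6 libraries, and at 116 of these (21.6%) at least 90% of the counts were in 1 library, against 18.9% in the whole table and 1.23% of such MERVL-int loci. The 5 MT2_Mm loci of highest mean count all lie in a single region of chromosome 10. The highest, chr10:118246326-118246657 (minus strand, 332 bp, intergenic, 117 bp from Gm9029), had WT values of 0, 135 and 656 counts and 0 in each KO library. The next, chr10:118252811-118253142 (plus strand, 332 bp, 117 bp from Gm9030), held 0, 120.5 and 411 in WT and 0 in each KO library. The other 3 (chr10:118337948-118338280, chr10:118327099-118327431 and chr10:118332525-118332857, each 333 bp on the minus strand) had 517, 449 and 337 counts in WT replicate 3, 0.200 in WT replicate 2 and 0 elsewhere. All 5 are shortened LTRs that cover consensus bases 1 to 300.

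This region, with 17 annotated MT2_Mm elements in the same megabase, 13 of them with counts, made up 38.3% of the MT2_Mm counts in WT replicate 3 and 5.18% in WT replicate 2. In the other libraries it made up at most 0.863%. Without it, which was tried after its values were seen, the log2 change of MT2_Mm was -0.98 (edgeR adjusted p = 0.413). Within WT it ranged from 0.200 counts in replicate 1 to 2758 in replicate 3. The 1934 MT2_Mm loci of 400 to under 600 bp with counts hold none of these short copies. Of them 1253 (64.8%) had a lower mean in KO, against 55.6% of all elements of that length. At 290 (15.0%) every KO library was below every WT library, against 2.54%, and at 5 (0.259%) every KO library was above, against 0.939%. KO replicate 2 had counts at only 188 MT2_Mm loci of any length. At a locus without counts in that library its value could not lie above WT, so these counts depend in part on it. Near-identical LTRs may also share reads, so the loci are not independent of each other.

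MT2_Mm beside a MERVL-int interior was compared with solo copies. Of the MT2_Mm loci 1507 lay within 100 bp of an interior on the same strand, and these held 83.5% of the WT counts. They had 1037, 1262 and 1873 CPM in WT and 748, 223 and 836 CPM in KO, without overlap. The 1145 solo copies had 226, 303 and 297 CPM in WT and 228, 5.67 and 338 CPM in KO, with overlap. In KO replicates 1 and 3 the solo copies were thus within or above the WT range. The chromosome 10 region with high counts in WT replicate 3 is part of both classes. There chr10:118246326-118246657 counted as flanking and chr10:118252811-118253142 as solo. The log2 ratio of flanking to solo copies was 2.20, 2.06 and 2.66 in WT and 1.71, 5.30 and 1.31 in KO, a difference of 0.47 (exact permutation test, two-sided, p = 1). Without KO replicate 2 the difference was -0.79 (exact p = 0.2, the smallest for 3 against 2), so its direction rests on that library. Without the chromosome 10 region the difference was 0.38.

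The ASO site divided the long interiors by sequence. The 595 loci that hold it had 16217, 17197 and 13568 CPM in WT and 6812, 5872 and 3224 CPM in KO. The 63 without it had 727, 1152 and 577 CPM in WT and 363, 251.5 and 156 CPM in KO. The log2 ratios of KO to WT were -1.56 and -1.67, and neither set overlapped between the groups. Loci that hold the site made up 95.0% of the WT counts of the long interiors on assembled chromosomes.

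Related repeats were examined to see how far the difference in MERVL-int was shared. The list held 18 subfamilies: the older MERVL_2A-int interior and MT2 LTRs of the ERVL family, and MT and ORR1A elements of the ERVL-MaLR family, which are non-autonomous relatives. Of 17 tested, 1 was called lower and 0 were called higher (edgeR), against 1.65% of all subfamilies called lower. At an unadjusted p under 0.05, 3 were lower and 0 higher, against 7.14% and 8.79% of all 546. DESeq2 called 3 lower and 0 higher, against 6.04% and 4.21% of all 546. The median log2 change of the list was -0.43, beside 0.11 for all 546 subfamilies. Of the 17, 10 had a change below 0, against 44.5% of all.

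The called subfamily was MTA_Mm, a young MT LTR that is also transcribed in the oocyte and early embryo. It had 6559, 6543 and 5358 CPM in WT and 2000.1, 2466 and 3096 CPM in KO, without overlap. Its log2 change was -1.29 ± 0.19 (SE, edgeR adjusted p = 0.0228). This call was lost with library totals and without WT replicate 1, 2 or 3 or KO replicate 1 or 2. It was also lost with the replicate number as a block in the fit. Its interior, MTA_Mm-int, had 383, 554 and 119.1 CPM in WT and 280, 298 and 480 CPM in KO, with overlap (log2 change 0.00 ± 0.58).

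MERVL_2A-int was the member of the list nearest to MERVL-int. It had 670, 633 and 674 CPM in WT and 325, 303 and 299 CPM in KO, with little spread in either group and no overlap. Its log2 change was -1.09 ± 0.28 (SE) with an adjusted p of 0.139 (edgeR), so it was not called. Among the older MT2 LTRs, the log2 change was -0.25 ± 0.79 for MT2A, 0.20 ± 0.75 for MT2B, -1.53 ± 0.70 for MT2B1, -1.87 ± 0.96 for MT2B2 and -2.10 ± 0.95 for MT2C_Mm. Their WT libraries differed widely, from 11.1 to 134 CPM for MT2C_Mm, and the groups overlapped for all 5.

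The other MT LTRs showed no common direction, with log2 changes of 0.14 ± 0.84 for MTB, 0.97 ± 0.63 for MTB_Mm, 0.54 ± 0.53 for MTC and -0.43 ± 0.41 for MTD. The ORR1A subfamilies spanned -2.81 ± 1.13 for ORR1A1-int, -1.51 ± 1.14 for ORR1A2-int, -0.77 ± 0.75 for ORR1A0, 0.55 ± 0.60 for ORR1A2 and 0.90 ± 1.08 for ORR1A1. The groups overlapped for each of these, and ORR1A0-int did not pass the filter.

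**Figure D5:**
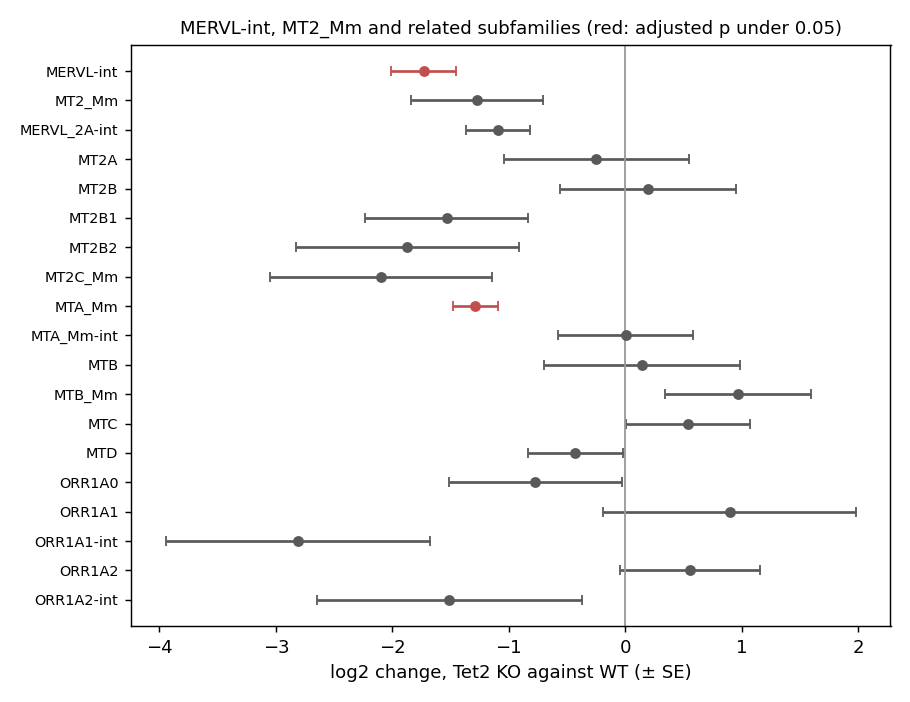
Fitted log2 change of Tet2 KO against WT (points, bars ± SE, edgeR) for MERVL-int, MT2_Mm and the 17 related subfamilies that were tested, with red for an adjusted p under 0.05. MERVL-int at -1.73 and MTA_Mm at -1.29 are the called ones, and the list spreads on both sides of 0.

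The difference in MERVL-int was also set against the rest of its family within each library. The log2 ratio of MERVL-int to all other ERVL elements together, leaving out MT2_Mm, was 2.95, 3.14 and 2.89 in WT and 2.12, 1.80 and 0.37 in KO. The groups did not overlap and differed by -1.56 (exact permutation test, two-sided, p = 0.1, the smallest possible). Without KO replicate 3, the lowest, the difference was -1.03. The other ERVL elements made up 0.242%, 0.227% and 0.211% of WT counts and 0.185%, 0.190% and 0.293% in KO, with overlap. Against MT elements the log2 ratio was -0.47, 0.70 and 0.45 in WT and -1.94, -0.72 and -1.65 in KO, a difference of -1.66 (exact permutation test, two-sided, p = 0.1). Without the 10 elements of highest count in the table it was -0.94 (exact permutation test, p = 0.1).

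Outside the family, the subfamilies whose log2 CPM followed that of MERVL-int most closely over the 6 libraries were mostly LINE-1 elements. Among 414 subfamilies with a mean of at least 50 counts, Pearson's r was 0.960 for L1MdF_I, 0.955 for L1MdA_III, 0.948 for L1MD2, 0.947 for L1MdTf_I and 0.942 for MERVL_2A-int. These values describe 6 libraries in 2 groups, so a shared difference between the groups alone gives a high r. L1MdTf_I, from the youngest LINE-1 elements of the mouse, had 135700, 130800 and 150200 CPM in WT and 91880, 89980 and 80850 CPM in KO, a log2 change of -0.67 ± 0.08 (SE). It was called lower (edgeR adjusted p = 0.00465), as were L1MdF_I and L1MdA_III (edgeR adjusted p = 0.0382 each). L1MD2 was not called (edgeR adjusted p = 0.24). MT2_Mm ranked at 78, with r = 0.555.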

How the data were processed

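The 6 mES cell libraries of m5C-precipitated caRNA (3 WT and 3 Tet2 KO) were analysed, and the 6 human libraries of the series were not used here. Per the labels and methods, the authors used Trimmomatic 0.39 for trimming, HISAT2 (2.1.0 in the submitters' processing notes) for alignment to mm10, transcriptome and spike-ins, Picard to drop duplicates and featureCounts to count each repeat element. The deposited values are estimated counts per element, not normalised, and the option that made them fractional is not stated. Fractions arise where a read is divided over several features, so values of near-identical copies are uncertain.

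Estimated counts were summed per subfamily or kept per locus, rounded to whole numbers and tested with edgeR 4.0.16 (R 4.3.3) after filterByExpr and TMM scaling, with a prior count of 2. DESeq2 1.42.0 was an alternative. SE is the absolute log2 change divided by the root of the F statistic. The fits were also run on simulated independent counts with planted changes. Such counts do not imitate reads shared between near-identical copies, so this run does not vouch for the values of single loci. For library-level values, WT and KO were set against each other in an exact permutation test (20 assignments, two-sided). Library totals of 1532029 to 3318565 counts set the precision. MERVL-int and MT2_Mm loci were annotated with GENCODE M21, and sequences were read from the GRCm38 reference (pysam). An MT2_Mm within 100 bp of a MERVL-int on the same strand was called flanking, the rest solo.

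For each subfamily the 5 loci of highest mean over 6 libraries were named, with every tested related subfamily and the 5 subfamilies most correlated with MERVL-int. The members, the lists and the tests were chosen with earlier results of these data known. The comparison of MERVL-int with other ERVL and MT elements, and the analysis without the chromosome 10 region, were added after the values were seen.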

Additional observations from a re-analysis of the deposited data

How the results depend on the processing

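The log2 change of MERVL-int was negative in all 15 alternatives. Its call was lost with library totals (-1.56), with the replicate block (-1.80, adjusted p = 0.0632, edgeR) and without WT replicate 1, 2 or 3 or KO replicate 2. With 1 library left out it lay between -1.99 and -1.46. MT2_Mm stayed negative and uncalled throughout, at -1.63 to -0.82 when single libraries were left out. Called member loci numbered 153 with DESeq2 and 0 in the 14 other alternatives. Related subfamilies called numbered 3 with DESeq2, 0 with library totals, 0 with the replicate block, 1 as reported, and 0 to 1 without single libraries. The differences of MERVL-int against other ERVL elements and against MT elements were negative in all 11 alternatives each, at -1.91 to -1.03 and -2.02 to -0.94. The share of both subfamilies in the counts was lower in KO in all 13 alternatives. With single libraries left out, the difference of the log2 ratio of MT2_Mm to MERVL-int ranged from -0.48 (without KO replicate 3) to 1.11, that of long to shorter MERVL-int loci from -0.26 to 0.06 (above 0 without WT replicate 2, at 0.0056, KO replicate 1, at 0.055, or KO replicate 3, at 0.026), and that of flanking to solo MT2_Mm from -0.79 (without KO replicate 2) to 1.20.

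Same-numbered libraries did not deviate together (correlations of -0.117, -0.0431 and -0.0853 over 415 subfamilies), so the numbers were not taken as pairs. Across all subfamilies the replicate block left 0 calls in place of 11 and called no member locus. Over all subfamilies, 2 were called higher and 9 lower as reported, 23 and 33 with the DESeq2 test, 2 and 5 without the 10 highest elements, and 2 to 3 and 3 to 5 without single libraries. Over all loci, 9 were called higher and 0 lower as reported, 1507 and 651 with the DESeq2 test, 1 and 0 without filterByExpr, and 0 and 0 without single libraries. No MT2_Mm locus passed the filter on low counts, so none could be tested singly in the reported fit.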
